A study of Mus musculus with 20 samples.

Results

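The genes examined here are the nuclear genes of oxidative phosphorylation, the protein-coding genes whose GENCODE symbols start with Nduf (but not Ndufaf), Uqcr, Cox4, Cox5, Cox6, Cox7, Cox8 or Atp5, together with Sdha, Sdhb, Sdhc, Sdhd and Cyc1. The rule named 87 of the 55401 genes in the count matrix, of which 36 belong to complex I, 4 to complex II, 9 to complex III, 20 to complex IV and 18 to complex V, and used no measured value. RNA was taken from the calf muscle gastrocnemius of 20 C57BL/6 mice aged 24 months. Haenkenium (HK), a standardised extract of Salvia haenkei, had been given to 10 of them in drinking water at 0.5 mg per kg per day since the age of 20 months. The other 10 were untreated. Each treatment group held 5 males and 5 females. The labels give 2 experimental batches, batch 1 with 8 mice and batch 2 with 12, and each of the 4 groups by treatment and sex had mice in both. Total counts lay between 13900180 and 30469644 per mouse, of which the nuclear oxidative phosphorylation genes took 1.80% to 2.49%. All 5 genes that mark skeletal muscle (Acta1, Ckm, Mb, Des and Ttn) were detected in every mouse, and summed to 57667 to 74992 CPM, the counts of a gene scaled to a common library size.

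Oxidative phosphorylation takes place in the inner mitochondrial membrane. Complexes I (NADH dehydrogenase) and II (succinate dehydrogenase) pass electrons to ubiquinone, complex III (cytochrome bc1) passes them on to cytochrome c, and complex IV (cytochrome c oxidase) passes them to oxygen, while complexes I, III and IV pump protons that drive complex V, the ATP synthase. Most subunits are encoded in the nucleus, some of the core ones in the mitochondrial genome, and several nuclear subunits of complexes IV and V exist as alternative isoforms, with forms particular to heart and skeletal muscle. Nuclear respiratory factor 1 (NRF1), GA-binding protein (GABP), the oestrogen-related receptors (ERR) and YY1 are transcription factors known to act on many of these genes.

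The promoters shown here are those in which a letter match to one of these factors was found, since the members are held to share such sites. RefSeq promoters (GRCm38.p6, 250 bases before to 50 after each start) matched 69 of the 86 member symbols, and motifs were searched as letters on both strands. GCATGCGC (NRF1) occurred in 14.5% of the matched members and in 3.94% of 17492 protein-coding genes. AAGATGGC (YY1) occurred in 14.5% of members and 3.57% of all, AAGGTCA (ERR) in 11.6% and 4.73%, and CCGGAAG (GABP) in 23.2% and 12.9%. In all, 34 of the 69 members held at least 1 of the 4. No 2 different motifs overlapped in a member's promoter, while NRF1 matches on opposite strands overlapped in 5 members. For each motif the member with the lowest p between the sexes is shown, with the match in capitals. They are Ndufa8 with the NRF1 letters (chr2:36049289-36049588), Cox6b1 with the GABP letters on the opposite strand (chr7:30626065-30626364), Ndufb4 with the ERR letters (chr16:37654319-37654618) and Ndufs4 with the YY1 letters (chr13:114388045-114388344), all 4 on the minus strand and written in the direction of the gene.
Ndufa8: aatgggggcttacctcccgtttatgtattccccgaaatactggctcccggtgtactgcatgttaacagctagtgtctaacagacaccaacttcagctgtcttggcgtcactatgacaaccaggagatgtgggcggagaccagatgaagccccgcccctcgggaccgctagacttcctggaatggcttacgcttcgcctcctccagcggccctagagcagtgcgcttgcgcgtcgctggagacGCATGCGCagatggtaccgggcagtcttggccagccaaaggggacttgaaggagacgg
Cox6b1: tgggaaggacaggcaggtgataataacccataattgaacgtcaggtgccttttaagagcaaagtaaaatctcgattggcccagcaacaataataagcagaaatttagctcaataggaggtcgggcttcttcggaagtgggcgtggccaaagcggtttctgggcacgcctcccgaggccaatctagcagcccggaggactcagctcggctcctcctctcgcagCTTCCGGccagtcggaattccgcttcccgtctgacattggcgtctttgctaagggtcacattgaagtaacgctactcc
Ndufb4: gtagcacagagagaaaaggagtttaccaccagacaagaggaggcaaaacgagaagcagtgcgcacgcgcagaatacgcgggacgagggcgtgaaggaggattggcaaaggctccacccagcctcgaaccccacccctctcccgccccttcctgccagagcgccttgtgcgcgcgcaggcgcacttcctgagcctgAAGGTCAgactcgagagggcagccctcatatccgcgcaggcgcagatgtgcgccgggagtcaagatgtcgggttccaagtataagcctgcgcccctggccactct
Ndufs4: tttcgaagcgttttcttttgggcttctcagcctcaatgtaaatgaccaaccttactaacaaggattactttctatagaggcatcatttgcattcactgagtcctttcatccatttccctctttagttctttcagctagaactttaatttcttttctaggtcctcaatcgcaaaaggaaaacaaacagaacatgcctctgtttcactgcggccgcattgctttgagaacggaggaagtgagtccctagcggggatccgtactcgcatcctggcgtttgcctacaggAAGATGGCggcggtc

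Of the 87 genes, 83 had enough counts to be tested. Cox8c, Cox7b2 and a second identifier of Atp5o had 0, 1 and 0 counts over all mice, and Cox6b2, the testis form of subunit 6b, had 100. The 83 tested genes were among the most abundant of the muscle. Their median level was 125 CPM per kb of exon, against 2.37 over all 13626 genes tested, and 73 of the 83 were in the top 10% of those genes. All except Cox4i2 had at least 10 counts in every mouse, and 79 had at least 100.

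Among nuclear core subunits of complex I, median levels per length over the 20 mice were 157 CPM per kb for Ndufv2, 137 for Ndufv1, which binds NADH and flavin, 117 for Ndufs7, 80.4 for Ndufs8, 58.6 for Ndufs1 and 38.2 for Ndufs3. Ndufb2, an accessory subunit, was the lowest of the complex at 5.21 CPM per kb. The levels of succinate dehydrogenase were closer together, from 86.5 CPM per kb for Sdhc, a membrane anchor, through 165 for Sdhb, the iron-sulphur subunit, and 178 for Sdhd, the other anchor, to 237 for Sdha, the flavoprotein. The ranges over mice of Sdhb (138 to 204) and Sdhd (145 to 221) overlapped nearly in full. In complex III, Uqcr10 was highest at 313 and the core protein Uqcrc1 lowest at 93.8 CPM per kb, with the Rieske protein Uqcrfs1 at 232 and Cyc1, which carries the haem of cytochrome c1, at 158.

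Complexes IV and V had the widest spread. Cox6a2, the heart and muscle form of subunit 6a, had the highest level per length of all 83 genes at 824 CPM per kb (541 to 1058), with Cox8b at 687 and Cox4i1 at 388. Cox4i2, the lung and oxygen-regulated form of subunit 4, was lowest at 1.08 CPM per kb (0.374 to 1.499). In complex V, Atp5b, the catalytic beta subunit, stood at 635 CPM per kb, above the alpha subunit Atp5a1 at 254 with no overlap between their ranges over mice (566 to 759 against 219 to 329). Atp5l, subunit g, was lowest at 1.1 CPM per kb. Exons were taken as the union over transcripts, so a long rarely used exon lowers such a value, and 7.63% of the 50-base stretches of Atp5l occur in other genes, 16 of them pseudogenes. Among the tested members 50-base stretches found in other genes made up 38.3% of Atp5g2, 25.4% of Uqcrb, 22.1% of Cox7c and 21.7% of Ndufs5, so that levels of these genes are uncertain.

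**Figure D1:**
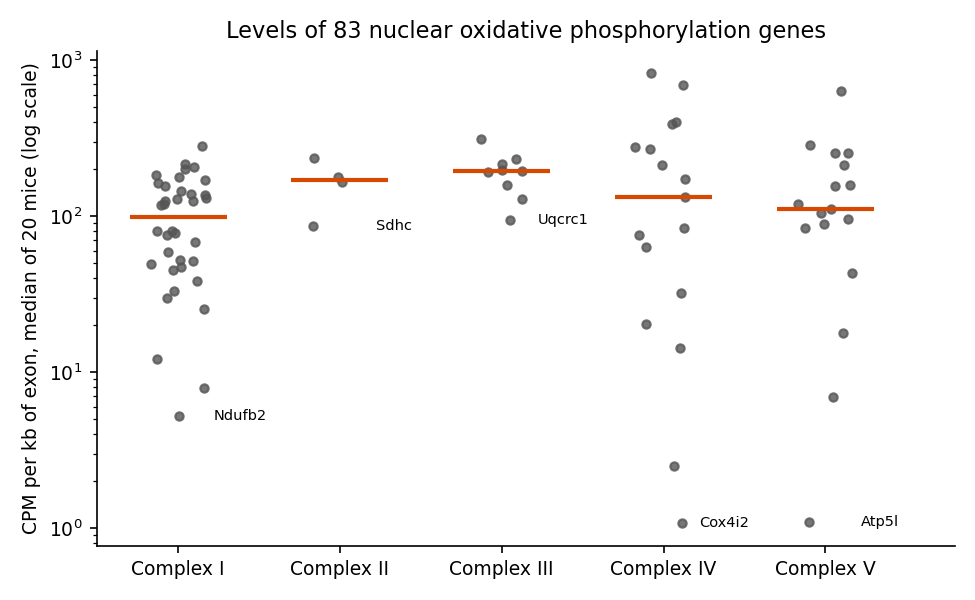
Level of each of the 83 tested genes, as the median over 20 mice of CPM per kb of exon on a log axis, by complex. Orange lines are medians of the complex (98.96 for I, 171 for II, 195 for III, 132 for IV and 111 for V), and the lowest gene of each complex is named.

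Within a mouse the 83 genes moved together, and mice of the same group differed. The measure is the number of genes above their own median over the 20 mice. In the untreated males it was 27, 69, 70, 74 and 80 of 83 for replicates 1 to 5. In the HK-treated males it was 67, 9, 20, 81 and 82. HK male replicate 2 thus had most of the set low and replicate 3 less so, with a median deviation of -0.047 on the log2 scale against -0.16 in replicate 2, while HK male replicates 4 and 5 had nearly the whole set high. In the untreated females the counts were 14, 6, 11, 54 and 75, and in the HK-treated females 7, 15, 13, 6 and 50. Most males were therefore high and most females low, with HK males 2 and 3 and untreated male 1 among the low mice and untreated females 4 and 5 and HK female 5 above the midpoint, untreated female 4 and HK female 5 only slightly. The summed level of the 83 genes ran from 17975 CPM in untreated female 2 to 25934 CPM in HK male 5, a 1.44-fold range. HK-treated mice had a lowest, median and highest sum of 18468, 19816 and 25934 CPM, and untreated mice 17975, 22016 and 23155 CPM, so the groups overlapped over most of their range. In bulk RNA, fewer muscle fibres and less RNA of these genes per fibre cannot be told apart.

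**Figure D2:**
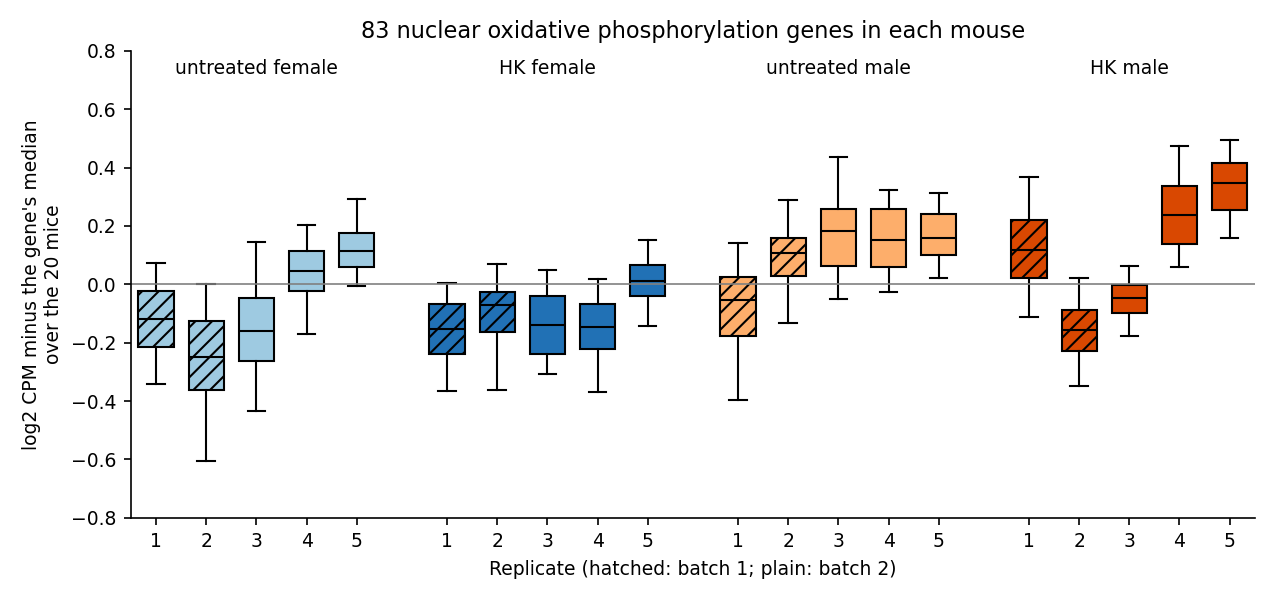
Deviation of the 83 genes from their own median over 20 mice (log2 CPM) in each mouse, as boxes of the quartiles with the median and whiskers from the 5th to the 95th percentile. The box lies above 0 in 8 mice, among them 4 untreated and 3 HK-treated males, and below 0 in 9, among them 7 females, and hatched boxes are batch 1.

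The first question was whether HK changed these genes in aged muscle. No nuclear oxidative phosphorylation gene rose or fell with HK by the edgeR quasi-likelihood test (0 of 83 at a Benjamini-Hochberg adjusted p under 0.05), and none of all 13626 genes did (0%). At an unadjusted p under 0.05, 0 members were higher and 0 lower, where 2.78% of all genes were higher and 3.35% lower. DESeq2's Wald test called 7 genes of the whole table and 0 members. The median log2 fold change of the 83 genes was -0.017, against 0.0024 over all genes, and 31 of the 83 were above 0. By complex it was -0.0088 for I, -0.050 for II, -0.023 for III, -0.030 for IV and -0.014 for V. The median was above 0 in batch 1 alone (0.021) and below it in batch 2 alone (-0.041), and with each mouse left out in turn it ran from -0.044 to 0.0038. The intervals show which changes the data leave room for: the 95% interval of the fold change lay within 1.25-fold in both directions for 78 of the 83 genes and within 1.5-fold for 81. The other 2 were Cox4i2 and Ndufa4l2, the members lowest in complex IV. The distance from the estimate to either end of the interval was 0.13 on the log2 scale for the median gene and ran from 0.097 to 0.49. By complex, 16 of 36 members of complex I were above 0, 1 of 4 of complex II (Sdha), 1 of 9 of complex III (Uqcrq), 7 of 17 of complex IV and 6 of 17 of complex V.

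**Figure D3:**
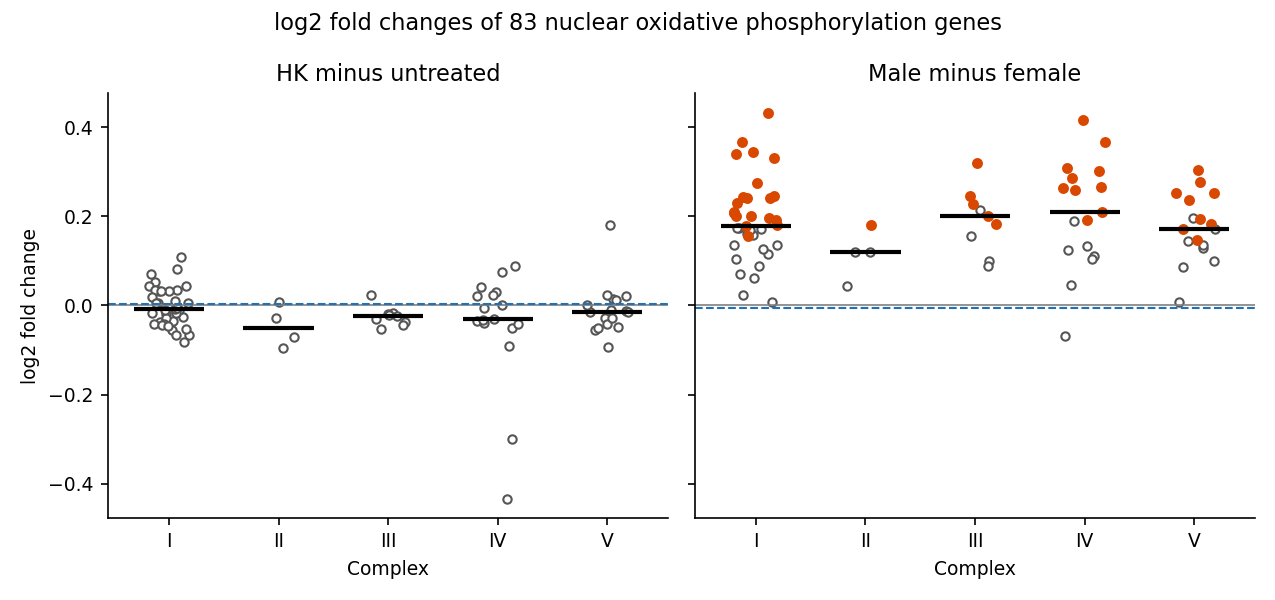
log2 fold changes of the 83 genes by complex for HK minus untreated (left) and male minus female (right). Filled points passed an adjusted p of 0.05 (0 at left, 45 at right), black lines are medians of the complex, and the blue dashed line is the median of all 13626 genes (0.0024 and -0.0065).

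The members closest to the threshold were 2 complex IV isoforms of low abundance. Ndufa4l2, a paralogue of the complex IV subunit Ndufa4 known from hypoxia, had 4.26, 2.09, 5.60, 2.74 and 3.51 CPM in untreated males and 2.18, 2.23, 2.76, 2.06 and 2.82 CPM in HK-treated males. In females it had 2.94, 2.50, 3.18, 2.23 and 2.73 CPM untreated and 2.19, 1.81, 3.28, 3.38 and 3.13 CPM with HK. The values of the groups overlapped, and untreated males 1 and 3 were the highest of all mice. The log2 fold change was -0.30 (SE 0.16, unadjusted p = 0.074, adjusted p = 0.80). Cox4i2 had a lowest, median and highest level of 0.573, 1.03 and 1.18 CPM in untreated mice and 0.295, 0.661 and 1.14 CPM in HK-treated mice, with as few as 4 counts in a mouse. Its log2 fold change was -0.43 (SE 0.23, unadjusted p = 0.078, adjusted p = 0.80), and the ranges overlapped. Genes of the vessel wall, a list chosen after these values were seen (Rgs5, Pdgfrb, Cspg4, Kcnj8, Abcc9, Acta2 and Myh11), had 0 of 7 called and a median log2 fold change of -0.25, with summed levels of 445 to 667 CPM in HK-treated and 476 to 652 CPM in untreated mice. The 6 endothelial markers had 0 called and a median of -0.25. Their part in the values of Cox4i2 and Ndufa4l2 was not tested.

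In the other complexes the treatment groups also overlapped over all mice for the members with the lowest p. Ndufc1, an accessory subunit of complex I, had a lowest, median and highest level of 78.8, 102 and 124 CPM in untreated and 95.05, 104 and 137 CPM in HK-treated mice, with a log2 fold change of 0.11 (SE 0.066, adjusted p = 0.82). Ndufv1 (-0.082) and Ndufa12 (0.071) followed. Sdhb had 336, 380 and 456 CPM in untreated and 308, 345 and 438 CPM in HK-treated mice, a log2 fold change of -0.096 (SE 0.062, adjusted p = 0.83), with Sdhc at -0.072 and Sdhd at -0.027. The groups overlapped for each of these genes. For Sdhc the HK-treated mice ranged more widely (239 to 332 CPM) than the untreated mice (276 to 313 CPM). In complex III the lowest p was that of Uqcrc2, a core protein, at -0.053 (SE 0.058, adjusted p = 0.89), with Uqcr11 at -0.043 and Cyc1 at -0.037. Cox7a1, the muscle form of subunit 7a, had -0.090 (SE 0.085, adjusted p = 0.87). In complex V the values were -0.092 for Atp5h (SE 0.056, adjusted p = 0.82), 0.18 for Atp5l (SE 0.12, adjusted p = 0.83) and -0.050 for Atp5o (SE 0.046, adjusted p = 0.87). For Atp5l the 4 HK-treated and 4 untreated mice of batch 1 did not overlap (6.02 to 8.36 CPM with HK, 4.62 to 5.87 CPM untreated). In batch 2 the groups overlapped (5.50 to 9.54 CPM with HK, 6.35 to 10.6 CPM untreated). How many of all genes separate in this way within a batch was not counted.

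The isoform make-up was that of skeletal muscle in every mouse. A share of reads per kb within an isoform family does not depend on the scaling between libraries. Cox6a2 made up 97.5% to 98.8% of Cox6a1 and Cox6a2 (median 98.3%), and Cox8b 95.7% to 98.0% of Cox8a and Cox8b (median 97.3%). Cox7a1 made up 64.2% to 70.6% of Cox7a1 and Cox7a2, so that the liver form Cox7a2 held the rest. Cox4i2 was 0.0748% to 0.464% of Cox4i1 and Cox4i2, Cox6b2 at most 0.145% of its pair, and Ndufa4l2 0.563% to 1.74% of Ndufa4 and Ndufa4l2. Of the 3 genes for the same subunit c of the ATP synthase, Atp5g3 held 73.9% to 80.7%, Atp5g1 13.8% to 18.1% and Atp5g2 5.16% to 8.45%. These shares depend on the exon lengths used. Without division by length, Atp5g3 had 347 to 581 CPM and Atp5g1 161 to 279 CPM.

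None of these 9 shares differed between HK-treated and untreated mice, or between males and females, in an exact two-sided permutation test within batch and the other factor (14400 arrangements), after adjustment over the 18 tests. The lowest adjusted p was 0.47, and the lowest raw p, 0.12, was that of the Cox8b share, which was 97.3% ± 0.339 in males and 96.9% ± 0.748 in females (SD, n = 10 each, exact permutation test). With HK the Cox7a1 share was 67.1% ± 1.39 against 67.9% ± 2.20 untreated (SD, n = 10 each), an exact permutation p of 0.31. The Ndufa4l2 share was 0.874% ± 0.267 with HK and 1.07% ± 0.356 untreated (SD, n = 10 each, exact permutation p = 0.21), and the Cox4i2 share 0.250% ± 0.138 and 0.319% ± 0.0921 (SD, n = 10 each, exact permutation p = 0.21). The ranges of the groups overlapped in each case. The shares of the subunit c genes moved with batch: in females Atp5g1 held 13.8% to 14.9% in batch 1 and 17.1% to 18.1% in batch 2, with no overlap, and in males 14.4% to 15.8% and 15.4% to 17.8%, with overlap.

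**Figure D4:**
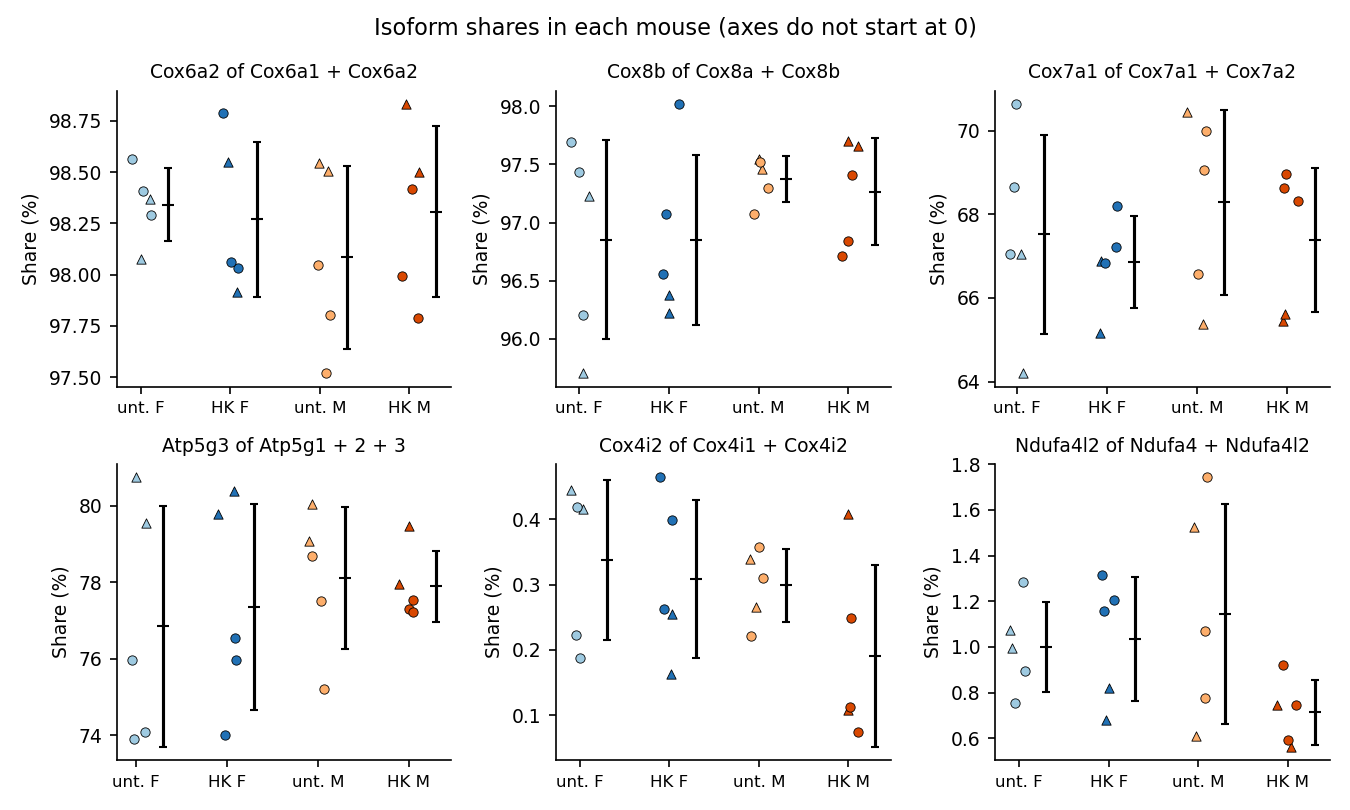
Share of reads per kb within an isoform family in each mouse, in untreated (unt.) and HK-treated females (F) and males (M), with triangles for batch 1, circles for batch 2 and bars for the mean ± SD of 5 mice. The groups overlap in each panel, with Cox6a2 and Cox8b above 95% and Cox4i2 below 0.5% in every mouse.

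Males and females can be compared within the same fit, since each treatment group held both. Of the 83 genes 45 were higher in males and 0 lower at an adjusted p under 0.05, where 8.79% of all genes were higher and 7.33% lower. The median log2 fold change of the 83 genes was 0.18, against -0.0065 over all genes, and Cox4i2 (-0.068, adjusted p = 0.88) was the only member below 0. By complex, 20 of 36 tested members of complex I rose (median 0.18), 1 of 4 of complex II (0.12), 5 of 9 of complex III (0.20), 10 of 17 of complex IV (0.21) and 9 of 17 of complex V (0.17). The number called depended on the mice: it was 26 without HK male 1 or without HK male 5 and 29 without HK male 4 or HK female 3, while 24 genes were called with each mouse left out in turn, and all 45 stayed above 0 in each of these fits. The 24 were 10 members of complex I, Uqcrc1 and Uqcr10 of complex III, 8 members of complex IV (Cox4i1, Cox6c, Cox7a1, Cox7a2, Cox7a2l, Cox7c, Cox8b and Ndufa4) and 4 of complex V (Atp5c1, Atp5g1, Atp5g3 and Atp5mpl).

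In complex I, Ndufa8, an accessory subunit on the side of the intermembrane space whose promoter is printed above, had 147, 160.4, 164, 172 and 174 CPM in untreated males and 157, 129, 139, 179 and 179 CPM in HK-treated males. In females it had 116, 121, 119, 137 and 149 CPM untreated and 120.1, 122, 119, 117 and 142 CPM with HK. The overlap lay between HK males 2 and 3 and untreated male 1 on the one side and untreated females 4 and 5 and HK female 5 on the other. The log2 fold change was 0.34 (SE 0.057, adjusted p = 0.00033). All 10 males were above the female median, and 7 of them above every female. Ndufs4, an accessory subunit whose loss causes mitochondrial disease, also rose in males (0.37, adjusted p = 0.00035), as did Ndufb4 (0.34, adjusted p = 0.0017). Smaller differences that passed the test ran from 0.15 for Ndufa7 to 0.33 for Ndufs7, the core subunit that carries the last iron-sulphur cluster before ubiquinone, and included both flavoprotein subunits Ndufv1 (0.20) and Ndufv2 (0.20). Not all core subunits were called, since Ndufs8 had 0.0084 (95% interval -0.14 to 0.16).

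Cox8b, the muscle form of subunit 8, had the lowest p of all members. It had 209, 275, 341, 302 and 307 CPM in untreated males and 262, 213, 271, 340.5 and 352 CPM in HK-treated males, against 189, 156, 209, 244 and 249 CPM in untreated and 199, 182, 259, 246 and 219.7 CPM in HK-treated females. Within each batch the sexes did not overlap. The log2 fold change was 0.42 (SE 0.065, adjusted p = 0.00015), and it passed the threshold in all 8 alternative fits other than those without a mouse and in all 20 of those. Cox4i1, the common form of subunit 4, had a lowest, median and highest level of 543, 662 and 774 CPM in males and 471, 499 and 602 CPM in females, a log2 fold change of 0.37 (SE 0.061, adjusted p = 0.00029). Ndufa4, with 0.30, and Cox7c, with 0.29, followed. The other 6 called members of complex IV, Cox5a, Cox6b1, Cox6c, Cox7a1, Cox7a2 and Cox7a2l, differed by 0.19 to 0.31. Cox6a2, the most abundant member per length, had 0.046 (95% interval -0.11 to 0.20).

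In complex III, Uqcrc1 had a lowest, median and highest level of 355, 432 and 557 CPM in males and 274, 334 and 448 CPM in females (log2 fold change 0.32, SE 0.080, adjusted p = 0.0094). Uqcr10 had 156, 199 and 248 CPM in males and 144, 167 and 199.7 CPM in females (0.23, SE 0.061, adjusted p = 0.015). The sexes overlapped in both. Cyc1 (0.24), Uqcr11 (0.20) and Uqcrh (0.18), the hinge protein, were the other members called in this complex. In complex II, Sdhd had 203, 231 and 273 CPM in males and 179, 208 and 228 CPM in females (0.18, SE 0.059, adjusted p = 0.042), a call that was lost without any of 11 single mice, and Sdhc did not pass the test (0.12, SE 0.055, adjusted p = 0.14). In complex V, Atp5g3, the main subunit c gene, had 398, 502 and 581 CPM in males and 347, 412 and 503 CPM in females (0.30, SE 0.077, adjusted p = 0.0097). Atp5mpl, a small membrane subunit, had 116, 139 and 177 CPM in males and 112, 116 and 137 CPM in females (0.24, SE 0.063, adjusted p = 0.014). The gamma subunit Atp5c1 (0.17), the delta subunit Atp5d (0.28) and Atp5o (0.15), the subunit that gives oligomycin sensitivity, were also called. The alpha and beta subunits did not pass the test, with 0.17 for Atp5a1 (adjusted p = 0.066) and 0.099 for Atp5b (adjusted p = 0.29).

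**Figure D5:**
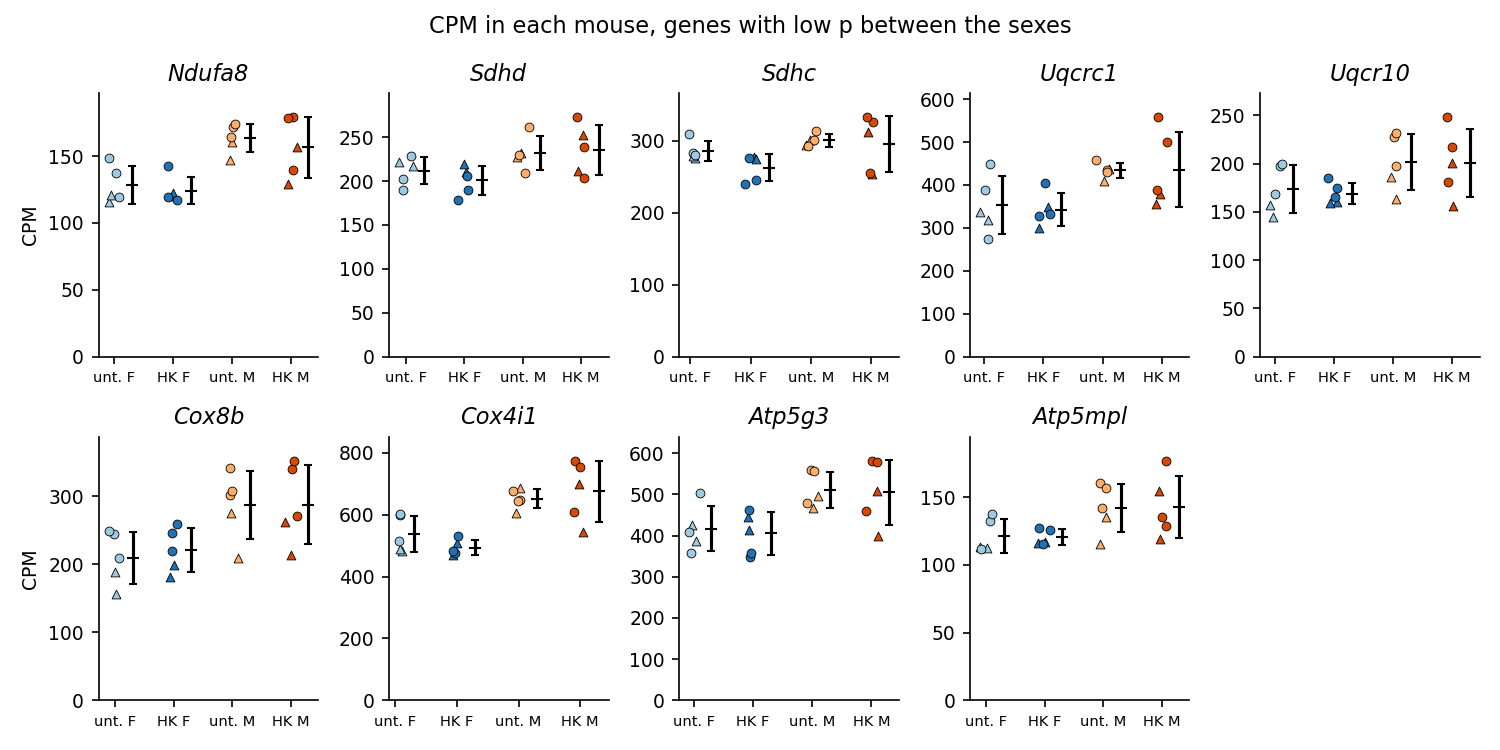
CPM in each mouse of 9 genes with low p between the sexes, up to 2 from each complex, in untreated (unt.) and HK-treated females (F) and males (M), with triangles for batch 1, circles for batch 2 and bars for the mean ± SD of 5 mice; axes start at 0. Most males lie above the female median in each panel. The sexes differ most clearly for Cox8b (medians of 289 and 214 CPM) and Cox4i1 (662 and 499 CPM).

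Some fibre type and other cell markers also differed between the sexes, in a fit where 8.79% of all genes were higher in males and 7.33% lower. Of 8 slow fibre markers 6 were lower in males (Atp2a2, Myh7, Myl2, Tnnc1, Tnni1 and Tnnt1) and none higher (median log2 difference -1.15). Their summed level was 794 to 6422 CPM in males, where untreated male 3 alone held the highest value and the others 2024 CPM or less, and 2558 to 4778 CPM in females. Myh2, the myosin of fast oxidative fibres, was lower in males as well (-0.45, adjusted p = 0.0027). Of 8 fast fibre markers 3 were higher in males (Tnnc2, Tnni2 and Tnnt3), and of 5 fat cell markers 4 were lower, with summed levels of 67.4 to 154 CPM in males and 93.2 to 248 CPM in females. Ckm was higher among the 5 muscle markers, and Cd68 among the 8 macrophage markers. None of the 6 endothelial, 5 fibroblast or 5 blood markers was called between the sexes. Above 0 were 7 of the 8 macrophage markers (median 0.53), 3 of the 5 fibroblast markers (0.28) and 4 of the 5 blood markers (0.069). Of the 6 endothelial markers 0 were above 0 (median -0.35), against 48.6% of all genes. Without untreated male 3, 41 of the 83 members were called higher in males, where 9.03% of all genes were, and 81 were above 0. The part of fibre and cell make-up in the difference was not tested.

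Of these marker lists, none had a gene called between HK-treated and untreated mice. At an unadjusted p under 0.05, 6 of the 8 slow fibre markers (median of the 8, -0.68) and Myh2 were lower, where 3.35% of all genes were. The summed slow fibre level was 861 to 6422 CPM in untreated males, with male 3 highest and male 1 next at 2024 CPM. In HK-treated males it was 794 to 1531 CPM. In females it was 2558 to 4778 CPM untreated and 2703 to 3723 CPM with HK. The response to HK was not shown to differ between the sexes for any member. The interaction of treatment with sex had 0 of 83 members at an adjusted p under 0.05 and 0 at an unadjusted p under 0.05, where 0% and 3.5% of 13800 genes passed. The interaction was positive, a more positive response in males, for 62 of the 83 (median 0.032), where 51.1% of all genes were positive (median 0.0053). This direction depended on the mice. It was positive for 26 members in batch 1 alone (median -0.061) and 73 in batch 2 alone (median 0.097). Without HK male 5 it was positive for 31 (median -0.017). Of the 83 intervals 35 lay within 1.25-fold and 77 within 1.5-fold, with a median distance of 0.27 to either end, so this comparison was less precise.

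Between the batches 31 members were higher in batch 2 and 1 lower, where 18.2% of all genes were higher and 19% lower. The median log2 fold change of the members was 0.15. Cox6b1 had the lowest p (0.43, SE 0.054, adjusted p = 1.3e-05), with medians of 229 CPM in batch 1 and 319.5 CPM in batch 2. Cox6a1, the common form of subunit 6a, had the largest difference (0.65, SE 0.098, adjusted p = 6.7e-05), and Atp5g2 and Cox6a2 had 0.41 and 0.43. Atp5s, which RefSeq names Dmac2l and which is counted in complex V by its symbol only, was the member called lower (-0.23, adjusted p = 0.026). All 8 macrophage, 5 fibroblast and 5 blood markers were higher in batch 2 as well. Of the 45 members called between the sexes, 17 were also called between batches (37.8% of the one list and 53.1% of the other), and batch was a term of each fit above. Within batch 1 alone 6 of the 83 members were called higher in males (7.23%), where 5.69% of all genes were, and within batch 2 alone 9 (10.8%), where 3.63% were, with 0 lower in either. These fits held 8 and 12 of the 20 mice. Their shares lay closer to those of all genes than in the fit of both batches, most nearly in batch 1. The medians of the members were 0.16 and 0.21.

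Other genes of the pathway were read from the same fits. With HK none was called in the 46 tested assembly factors, 17 regulators, 15 electron carriers and their makers, or 7 tested genes of the mitochondrial genome. Between the sexes, where 8.79% of all genes were higher and 7.33% lower, 8 of the 46 assembly factors were higher in males and 0 lower, among them Sco2, which inserts copper into complex IV (0.53, adjusted p = 0.0067). Of the 17 regulators 1 was higher, Esrra (0.36, SE 0.061, adjusted p = 0.00035), which encodes the receptor ERR alpha, and 2 were lower, Esrrb (-0.34) and Gabpb2 (-0.29), a number close to what the shares over all genes give. Ppargc1a, the coactivator of mitochondrial genes, had 0.18 (SE 0.28, adjusted p = 0.72), Nrf1 -0.073 and Tfam 0.012. Among the 15 electron carriers and their makers 2 were higher in males and 0 lower. They were Cycs, cytochrome c (0.27, adjusted p = 0.034), and Coq7 of ubiquinone synthesis (0.37, adjusted p = 0.0038). Of the 7 tested mitochondrial genes 4 were higher and 0 lower, namely mt-Co1 (0.28), mt-Nd1 (0.28), mt-Nd4 (0.27) and mt-Cytb (0.22). The other 6 of the 13 had between 1 and 3347 counts over all mice, against 47486 to 7108383 for those tested. The 3347 were those of mt-Atp6, with a median of 0.0681 CPM and a highest of 184 CPM over the mice. Whether the low counts of these 6 come from the tissue or from the counting of reads was not tested. Of the 67 tested members with a RefSeq promoter, 16 of the 39 higher in males and 18 of the 28 not called held at least 1 of the 4 motifs, which is a description with no test.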

How the data were processed

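RNA of the gastrocnemius was sequenced after depletion of ribosomal RNA on a NextSeq 500. The authors aligned reads with STAR 2.6.1c in two-pass mode to GRCm38.p6 and deposited raw counts per gene (GENCODE M25), whole numbers with no normalization. For the counting tool, strand and multi-mapping reads, settings were not given in the sources used here. Treatment, sex, batch and replicate came from the labels. Symbols and exon lengths came from GENCODE M21, the release used here, which left 260 identifiers unmatched. Each sample is 1 mouse. No 2 mice of a group looked like one library (chi-square over degrees of freedom 8.22 or more in 40 pairs).

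The counts were tested with edgeR 4.0.16 (TMM, filterByExpr, quasi-likelihood F test, Benjamini-Hochberg over all genes) with batch, sex and treatment as terms, in R 4.3.3. DESeq2 1.42.0 was an alternative. CPM used TMM library sizes. Isoform shares were tested in Python 3.11.15. The tests were checked on simulated data. Alternatives were the DESeq2 Wald test, scaling by DESeq2 size factors, testing genes of any count, a replicate block, each batch, sex or treatment alone and each mouse left out, and for shares no division by length and no strata. Members with a test are the 3 with the lowest p with HK and the 2 with the lowest p between the sexes in each complex. Other members given with a difference, and the vessel wall list, were chosen after their values were seen. Members and lists were chosen with earlier results of these data known. One member that the rule for named genes selects is not reported here.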

Additional observations from a re-analysis of the deposited data

Results flagged for a closer look

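In each of the 4 groups of 5 mice, the members named for HK or sex, the isoform shares and the median deviation of the members were checked for a mouse far from the others, and 3 of 128 checks found one. Untreated male 1 had 76.7 CPM of Ndufa12, against 84.7 to 86.5 CPM in the other untreated males. HK female 5 had 142 CPM of Ndufa8, against 117 to 122 CPM in the other HK-treated females. Untreated female 5 had 309.7 CPM of Sdhc, against 276 to 283 CPM in the other untreated females. About 1 check in 20 finds such a mouse by chance.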

How the results depend on the processing

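With HK, no member was called in any alternative. Over all genes, DESeq2's Wald test called 7, the fit with no filter on low counts 502 (455 of them among the 13626 tested with the filter) and fits with a mouse left out 0 to 1 (1 without HK female 1). Members with an unadjusted p under 0.05 numbered 1 higher in batch 1 alone, 1 higher and 1 lower in males alone, and 0 to 2 higher (above 0 without HK female 4, untreated female 5 or untreated male 2) and 0 to 2 lower (above 0 without HK female 4, HK male 2, 4 or 5, untreated female 3 or 4, or untreated male 2 or 4) with a mouse left out. Between the sexes the 45 members called higher became 26 to 49 with a mouse left out, 6 in batch 1 alone, 9 in batch 2 alone, 2 in untreated mice alone (2.41%, against 1.85% of all genes) and 5 in HK mice alone (6.02%, against 2.94%), fits with fewer mice. No alternative called one lower. Replicate numbers within sex or treatment gave no sign of pairing (4 of 10 correlations of same-numbered mice over 0.1 with HK, 3 of 10 between the sexes). With 2 mice per group in batch 1, both pairs there give the same correlation (-0.42 for males 1 and 2 with HK), so these counts include repeats. A replicate block called 0 members with HK and 40 between the sexes, with medians of -0.020 and 0.18, and the block changed no call of a named gene. Directions reversed for Sdhd in males alone (0.019) and Uqcr11 in batch 1 alone (0.078), both with HK and neither called. Among shares (percentage points, none called), batch 1 alone reversed Cox8b (0.00571) and Atp5g3 (-0.45) with HK and Cox6a2 (0.37), Atp5g1 (0.71), Atp5g2 (0.28) and Atp5g3 (-0.984) between the sexes, and batch 2 alone Atp5g2 with HK (-0.24) and Cox8b between the sexes (-0.022). With a mouse left out the HK differences ran from -0.0012 to 0.13 for Cox6a2, -0.21 to 0.035 for Cox8b, -0.46 to 0.038 for Atp5g1, -0.17 to 0.28 for Atp5g2 and -0.26 to 0.54 for Atp5g3. In batch 1 alone the smallest possible p of the share test is 0.056. The causes were not tested. Depth limits the statements on Cox4i2 and Ndufa4l2, with 307 and 1045 counts over 20 mice.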

Other observations

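Genes related to the members but outside the rule were also read from the same fits. Ndufb1-ps, which GENCODE M21 lists as a non-coding RNA of a bidirectional promoter, had 30228 counts over all mice, with 82.4 ± 10.4 CPM in HK-treated and 82.2 ± 6.01 CPM in untreated mice (SD, n = 10 each), and did not pass the test between the sexes (log2 fold change 0.059, SE 0.065, adjusted p = 0.58). Usmg5 and Atpif1, an ATP synthase subunit and its inhibitor under older names, had 27274 and 5058 counts. Usmg5 had 0.18 between males and females (SE 0.074, adjusted p = 0.095) and 0.027 between HK-treated and untreated mice. Atpif1 had 0.21 between males and females (SE 0.084, adjusted p = 0.0997) and -0.038 between HK-treated and untreated mice. None of the 3 was called in either comparison.

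Blood cell genes, which are no part of the pathway, were above 0 with HK for 5 of 5 markers (median log2 fold change 0.47), of which 0 were called, and macrophage and fibroblast markers were below 0 for 8 of 8 and 5 of 5 (medians of -0.28 and -0.22), of which 0 were called.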
